A study of Rattus norvegicus with 484 samples.

Results

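Scd, Scd2 and Elovl6 encode enzymes that shape newly made fatty acids, and their RNA was followed in liver and 3 muscles of rats given PPAR agonists or retinoic acid. The members were chosen by the gene symbol that the platform's annotation gives a probe (Scd also under its older symbol Scd1). That gave 7 of the 23653 probes on the array: 2 for Scd, 1 for Scd2 and 4 for Elovl6, which is 3 of 10210 named genes. All 7 had a value on every array, and none lay at the limit to which the deposited ratios were capped.

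Elovl6 is the elongase that lengthens palmitoyl-CoA to stearoyl-CoA in the endoplasmic reticulum. Scd and Scd2 are stearoyl-CoA desaturases, which place a double bond in these chains and so make palmitoleate and oleate, the main monounsaturated fatty acids of triglycerides, cholesterol esters and membranes. Scd is the main isoform of adult liver and fat, while Scd2 is known best from brain and, in mouse, from the newborn liver. Transcription of Scd and Elovl6 is known to be driven by SREBP-1c, LXR and ChREBP, and in mouse liver Scd1 is also raised by peroxisome proliferators, the compounds that activate PPARA.

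Each of the 484 arrays compared Cy5-labelled RNA of 1 rat with Cy3-labelled RNA pooled from vehicle rats, matched for tissue and day. The compounds were the fibrates fenofibrate and bezafibrate, lipid-lowering drugs that activate PPARA, the PPARA agonist Wy-14643, the PPARG agonist rosiglitazone, and retinoic acid, a ligand of nuclear retinoid receptors. In liver, soleus and quad (muscle names as the labels write them) single rats were taken on days 2 to 6. Fenofibrate was given at 400 mkd (the labels' unit) to 14 rats with a liver array, 19 with a soleus array and 18 with a quad array. Bezafibrate at 250 mkd had 15, 20 and 20 arrays in these tissues, Wy-14643 at 100 mkd had 15, 18 and 16, rosiglitazone at 100 mkd had 15, 20 and 16, and retinoic acid at 25 mkd had 15, 20 and 18. Vehicle rats had 73, 35 and 63. The muscle that the labels call EDL was sampled at lower doses and had no arrays of single vehicle rats. It held 9 fenofibrate arrays (50 mkd), 9 bezafibrate arrays (25 mkd), 12 Wy-14643 arrays (10 mkd) and 11 retinoic acid arrays (2.5 mkd), together with rosiglitazone at both 10 mkd (9 arrays) and 100 mkd (4 arrays). In EDL, Wy-14643 and retinoic acid had arrays of days 3 to 6, and the fibrates and rosiglitazone at 10 mkd of days 4 to 6. Rosiglitazone at 100 mkd had EDL arrays of day 4 alone. The labels used here give no strain, sex or age and no genetic change. Within a tissue, all 5 compounds were set against the same vehicle arrays, so that their comparisons are not independent of one another.

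The promoters of both desaturase genes are shown because the genes lie close together on the same chromosome and behaved differently. Both are from RefSeq on build GRCr8 and cover the 250 bases before the annotated start, written from 5′ to 3′ on the strand of the gene, with CCAAT boxes in capitals.
Scd, chr1:253231732-253231981, minus strand: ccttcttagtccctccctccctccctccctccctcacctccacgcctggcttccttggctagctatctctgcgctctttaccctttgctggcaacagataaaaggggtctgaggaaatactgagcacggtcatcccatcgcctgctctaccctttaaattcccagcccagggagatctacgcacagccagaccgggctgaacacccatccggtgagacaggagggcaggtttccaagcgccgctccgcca
Scd2, chr1:253118127-253118376, plus strand: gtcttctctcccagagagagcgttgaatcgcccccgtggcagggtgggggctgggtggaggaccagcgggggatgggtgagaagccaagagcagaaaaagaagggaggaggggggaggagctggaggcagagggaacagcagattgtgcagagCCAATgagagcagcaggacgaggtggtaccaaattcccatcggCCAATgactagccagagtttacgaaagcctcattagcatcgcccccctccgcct
Of the 3 genes, the promoter table held Scd and Scd2. The motifs searched on both strands, none overlapping another here, were the CCAAT box (CCAAT), a sterol response element (ATCAC, any base, then CCAC), a direct repeat of AGGTCA with 1 base between the copies, the form that PPAR-RXR pairs bind, and the same repeat with 4 bases between, the form that LXR-RXR pairs bind. The Scd2 promoter held 2 CCAAT boxes, at bases 97 to 93 and 54 to 50 before the start, and the Scd promoter held none of the 4 motifs as spelled. Of 33469 promoters of this length, 34.0% held a CCAAT box, 0.23% the sterol response element, 0.0508% the first repeat and 0.00299% the second. Scd2 lies on the plus strand and Scd on the minus strand of chromosome 1, and Elovl6 lies on chromosome 2.

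All values below are log2 ratios of rat over pool, or differences of such ratios between compound and vehicle. The labels do not state the scale or the direction of the deposited ratios. They were taken as log10 of Cy5 over Cy3 because they centred on 0 and were capped at -2 and 2, a 100-fold limit on a log10 scale. With this direction, 8 of the 9 classic PPARA target genes tested in liver were higher with fenofibrate, with bezafibrate and with Wy-14643. A rule written after the arrays were seen put 9 arrays in doubt for an unusually wide spread or for marker genes of another tissue: 3 vehicle arrays in soleus, 5 arrays in quad (2 of them vehicle) and the liver array of rosiglitazone rat 1376. Results of the members that rest on them are given with and without them, while counts over gene lists were made with all arrays. A test counts as called at a Benjamini-Hochberg adjusted p under 0.05 over all probes tested, from limma's moderated test. With so many probes called in liver, a call there says little by itself, and the share of all probes called is printed beside the members' counts. In these whole-tissue samples, fewer cells of a type and less RNA per cell cannot be told apart.

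In liver, fenofibrate and Wy-14643 raised all 7 probes, and Scd probe 2 rose more than any other probe tested. Of all tested probes, 37.2% were called for fenofibrate, 18.2% as higher, and 40.1% for Wy-14643, 19.2% as higher. Scd probe 2 ranged from 2.85 to 4.80 (median 3.83) in the 14 fenofibrate rats and from 2.20 to 4.50 (median 3.84) in the 15 Wy-14643 rats, against -3.23 to 2.499 (median -0.62) in the 73 vehicle rats. All 14 fenofibrate rats and 13 of 15 Wy-14643 rats lay above the highest vehicle rat. The mean difference over the 5 days was 4.44 ± 0.331 with fenofibrate, a 21.7-fold rise (SE, n = 14 and 73, limma adjusted p = 3.54e-23), and 4.24 ± 0.318 with Wy-14643, an 18.9-fold rise (SE, n = 15 and 73, limma adjusted p = 2.98e-23). By size these ranked 1 of 23276 and 1 of 23265 probes.

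The other Scd probe showed the same rise on a smaller scale. Scd probe 1 ranged from 0.58 to 2.04 (median 1.01) in fenofibrate rats, against -0.46 to 0.64 (median -0.02) in vehicle rats, and 12 of 14 lay above the highest vehicle rat. The differences were 1.21 ± 0.0868 with fenofibrate (limma adjusted p = 2.94e-24) and 0.92 ± 0.0834 with Wy-14643 (limma adjusted p = 3.22e-18). Over all 147 liver arrays the SD was 2.14 for probe 2 and 0.54 for probe 1, and the values correlated at r = 0.785. Probe sequences were not used here, and whether either probe also reads the paralog Scd2 was not tested.

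Elovl6, the elongase, rose together with Scd. Its probe 4 ranged from 1.30 to 3.59 (median 2.13) in fenofibrate rats and from 0.44 to 3.13 (median 1.81) in Wy-14643 rats, against -2.56 to 1.74 (median -0.25) in vehicle rats. The groups overlapped, with 10 of 14 and 10 of 15 treated rats above the highest vehicle rat. The difference was 2.46 ± 0.237 with fenofibrate, 5.51-fold (limma adjusted p = 1.83e-16), and 2.00 ± 0.227 with Wy-14643 (limma adjusted p = 4.13e-13). Probes 1 and 2 rose by 2.28 ± 0.21 and 1.99 ± 0.187 with fenofibrate and by 1.77 ± 0.201 and 1.48 ± 0.179 with Wy-14643. Probe 3 rose least, by 0.76 ± 0.0633 and 0.51 ± 0.0609. Over the liver arrays probes 1 and 4 were nearly interchangeable (r = 0.995), while probe 3 followed probe 1 less closely (r = 0.823).

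Bezafibrate, the other fibrate, raised Elovl6 in liver, and Scd on 1 of its probes. All 4 Elovl6 probes were called, from 0.34 ± 0.0609 on probe 3 to 1.31 ± 0.227 on probe 4, a 2.48-fold rise (limma adjusted p = 2.83e-06), where 21.4% of all probes were called. Elovl6 probe 4 ranged from -0.09 to 2.55 (median 1.02), and all 15 rats lay above the vehicle mean of their day, but only 3 above the highest vehicle rat. Scd probe 2 rose by 0.88 ± 0.318 (limma adjusted p = 0.0349) with rats from -1.28 to 2.94 (median 0.30), a call that 4 of 13 alternatives ended. Scd probe 1 differed by -0.10, from -0.27 to 0.06 at 95% confidence, and was not called. Scd2 was lower by 0.30 ± 0.111 on the log2 scale (limma adjusted p = 0.0389), a call that also ended in 4 of 13 alternatives. Fenofibrate and bezafibrate were given at different doses, 400 and 250 mkd, so their values stand side by side here and were not compared.

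Rosiglitazone and retinoic acid moved these genes little or unevenly in liver. With rosiglitazone, 22.4% of all probes and 2 of the 7 were called: Scd probe 1 fell by 0.26 ± 0.0834 on the log2 scale (limma adjusted p = 0.018, 14 of 15 rats below the vehicle mean of their day, a call that ended in 3 of 13 alternatives) and Scd2 rose by 0.32 ± 0.111 (limma adjusted p = 0.029). The call of Scd2 ended without the doubted array of rat 1376 (0.26, limma adjusted p = 0.0965). Elovl6 probe 4 differed by 0.06 ± 0.227, with a 95% interval from -0.39 to 0.51. Of the markers of skeletal muscle, 5 of 9 were also higher in rosiglitazone livers, with array medians from -0.09 to 1.60, against -0.13 to 0.44 in vehicle livers. Doubted rat 1376 was among these livers, with muscle markers 1.556 above the median of the day's other liver arrays. Neither the count nor the range was computed without it. The part of these markers in the Scd2 value was not tested. With retinoic acid, 28.9% of all probes were called, and among the members both Scd probes rose, probe 1 by 0.32 ± 0.0834 (limma adjusted p = 0.00133) and probe 2 by 1.18 ± 0.318 (limma adjusted p = 0.00206). The retinoic acid rats spread widely on Scd probe 2, from -2.40 to 3.92 (median 0.09), and no Elovl6 probe was called over the 5 days.

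**Figure D1:**
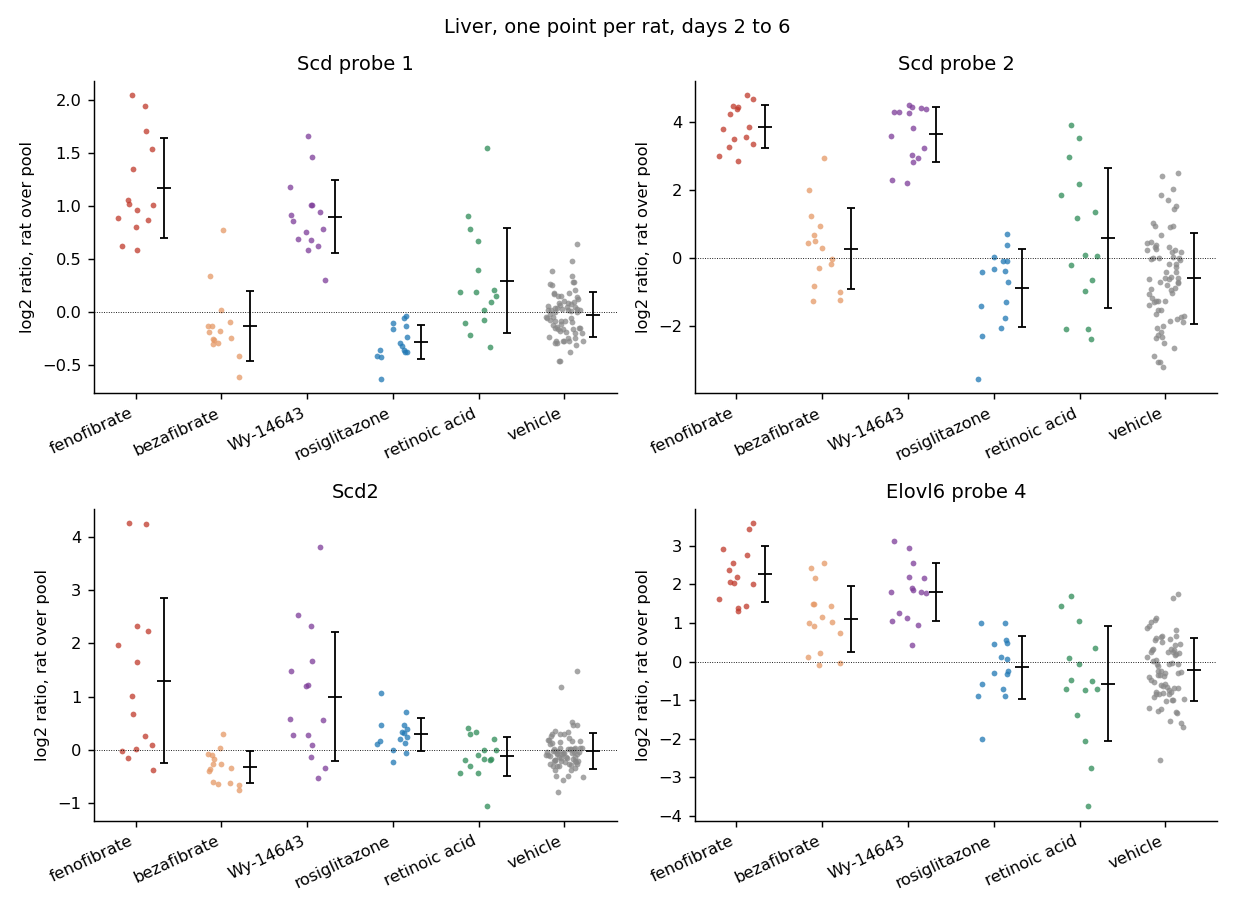
Log2 ratio of rat over pool in liver for Scd probe 1, Scd probe 2, Scd2 and Elovl6 probe 4, with 1 point per rat on days 2 to 6, in 5 compound groups and vehicle; the bar beside each group gives its mean and SD. On Scd probe 2 all 14 fenofibrate points lie above the highest of the 73 vehicle points, while Scd2 is spread from -0.38 to 4.26 in fenofibrate rats.

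The days separated Scd and Elovl6 from Scd2. On day 2, the earliest day sampled, the Scd probe 2 ratio of fenofibrate rats ran from 3.80 to 4.69 and that of Wy-14643 rats from 4.29 to 4.50, against -0.76 to 1.02 in 14 vehicle rats. The differences on days 2, 3, 4, 5 and 6 were 4.44, 3.74, 4.67, 4.49 and 4.86 with fenofibrate and 4.54, 3.71, 4.42, 3.80 and 4.74 with Wy-14643, and all 10 were called. Elovl6 probe 4 differed by 2.89, 2.31, 2.79, 1.94 and 2.37 with fenofibrate, all called, and by 2.35, 1.44, 2.42, 1.80 and 1.99 with Wy-14643, where day 3 was not called (limma adjusted p = 0.054). Neither gene had a called slope over days. Single days called 9.70, 6.80, 9.15, 7.70 and 13.8% of all probes with fenofibrate and 8.09, 9.99, 7.64, 9.84 and 15.0% with Wy-14643. Fenofibrate had only 2 rats on day 3, and leaving out either one ended the call of Scd probe 2 on that day, with differences of 3.70 and 3.78, and that of Elovl6 probe 4 (2.14 and 2.48). On day 5 the call of Elovl6 probe 4 ended without rat 1156 with fenofibrate (1.96) and without rat 1211 with Wy-14643 (1.55).

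Scd2 started at the vehicle level and climbed. In fenofibrate livers its ratio was 0.02, -0.38 and -0.02 on day 2, 0.08 and -0.15 on day 3, 0.68, 2.24 and 1.01 on day 4, 1.64, 1.97 and 0.25 on day 5, and 2.32, 4.26 and 4.24 on day 6. In Wy-14643 livers it was -0.34, 0.28 and 0.29 on day 2, 0.08, -0.54 and -0.14 on day 3, 0.56, 0.57 and 1.22 on day 4, 1.20, 1.48 and 1.67 on day 5, and 3.81, 2.33 and 2.53 on day 6. The 16 vehicle rats of day 6 ran from -0.33 to 0.34, so all 6 treated rats of that day lay above them, while on days 2 and 3 the groups overlapped. On day 6 the differences were 3.58 with fenofibrate (limma adjusted p = 7.2e-24) and 2.86 with Wy-14643 (limma adjusted p = 4.7e-18). The slope per day was 0.88 ± 0.0799 with fenofibrate (limma adjusted p = 2.19e-15) and 0.72 ± 0.0783 with Wy-14643 (limma adjusted p = 2.62e-11). These were the 2 slopes called among the 7 probes and 5 compounds in liver, where 0.842% of all probes had a called slope with fenofibrate and 0.155% with Wy-14643. The means over the 5 days, 1.24 ± 0.115 and 1.03 ± 0.111, thus average days without and with a difference. Rats are single animals on each day, not the same animals followed over time.

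Retinoic acid called Scd probe 2 in liver on day 2 alone. It was 3.53, 3.92 and 1.86 in the 3 retinoic acid rats of day 2, all above the vehicle range of -0.76 to 1.02, a difference of 3.25 (limma adjusted p = 8.6e-04) on a day when 13.3% of all probes were called. On days 3 to 6 the differences were -0.46, 1.33, -0.13 and 1.93, and none was called. Without day 2, the mean over days was 0.67 and not called (limma adjusted p = 0.194). Elovl6 probe 4 ran the other way on day 3: the 3 rats had -2.07, -3.75 and -0.51, a difference of -1.98 that was called, and probes 1 and 2 fell by 1.63 and 1.35. On that day 18.7% of all probes were called. The Scd probes parted on day 3, when probe 1 rose by 0.58 and was called while probe 2 differed by -0.46. The day 3 values rested on rat 1314. Of the 3 rats it had the highest Scd probe 1 ratio (1.55, against 0.02 and 0.09). It also had the lowest Scd probe 2 ratio (-2.11, against 0.09 and -0.66). Without it, Elovl6 probe 4 differed by -1.16 (limma adjusted p = 0.346) and Scd probe 1 by 0.09 (limma adjusted p = 0.939). The mean of Elovl6 probe 4 over all days was -0.36 and not called, and it depended on the day left out. Without day 2, the falls of Elovl6 probes 1, 2 and 4 over the remaining days were called (-0.72, -0.61 and -0.80). Without day 3, the sign of probe 4 changed.

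Bezafibrate livers had called members on day 6 alone of the single days. Scd probe 2 was 2.94, 0.68 and 2.00 in the 3 rats, a difference of 2.23 (limma adjusted p = 0.037), and Elovl6 probe 4 was 2.55, 0.91 and 0.99, a difference of 1.82. All 4 Elovl6 probes were called that day, when 6.17% of all probes were. The calls of all 4 Elovl6 probes ended without rat 1269 (1.28 on probe 4), and that of Scd probe 2 without any 1 of the 3 rats (1.70 to 2.83). With rosiglitazone the only called day was day 4 for Scd2 (0.66, limma adjusted p = 0.025, with 41.0% of all probes called). It rested on doubted rat 1376, which had 1.07 beside 0.21 and 0.32, and was 0.39 without it.

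**Figure D2:**
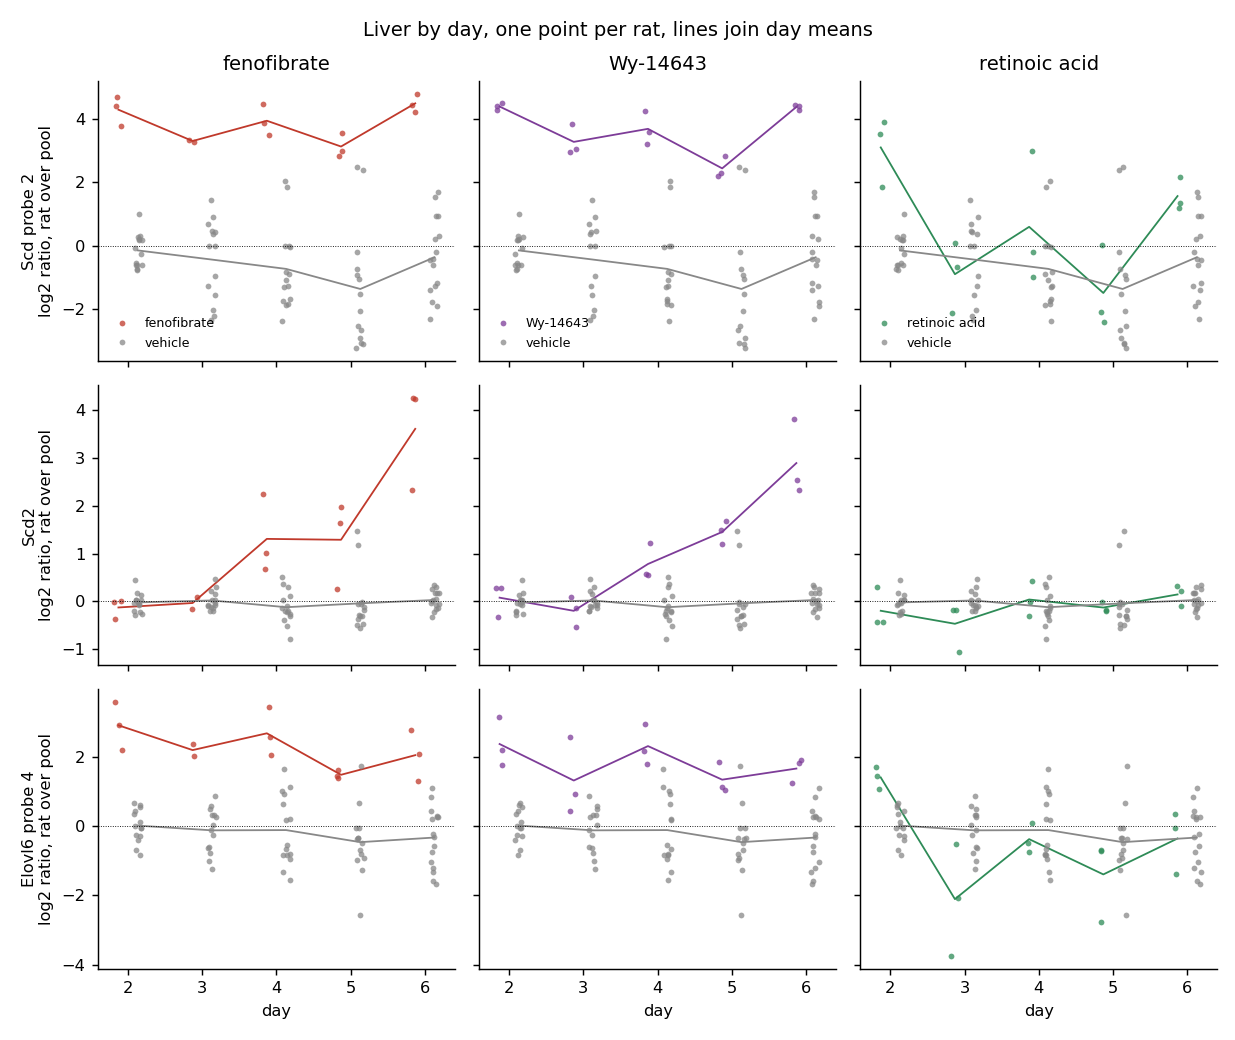
Log2 ratio of rat over pool in liver by day for Scd probe 2, Scd2 and Elovl6 probe 4 (rows) with fenofibrate, Wy-14643 and retinoic acid (columns), 1 point per rat; grey points are the vehicle rats, the same in each column, and lines join the means of the days. Scd2 stays at the vehicle level on days 2 and 3 and reaches 2.32 to 4.26 in fenofibrate rats on day 6, while Scd probe 2 is already at 3.80 to 4.69 on day 2.

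Other genes of the lipogenic pathway were called in both directions in liver. Of 22 measured genes of lipogenesis and its control, 12 were higher and 1 lower with fenofibrate, and 9 were higher and 3 lower with Wy-14643, where 37.0% and 40.2% of all features were called with the probes of a gene averaged. Their median difference was 0.22 with fenofibrate and 0.11 with Wy-14643, against 0.00 and -0.01 over all features. Me1, the malic enzyme that supplies NADPH, rose by 1.77 and 1.95. Acacb, an acetyl-CoA carboxylase, rose by 0.68 and 0.49. Srebf1, which encodes SREBP-1, rose by 0.76 with fenofibrate, and Pklr, the liver pyruvate kinase, fell by 1.30 with Wy-14643. With bezafibrate 4 were higher and 5 lower (21.3% of all features called), Me1 at 0.89, Srebf1 at -0.63 and Thrsp, a gene induced with lipogenesis, at -1.23. Rosiglitazone gave 4 higher and 7 lower (22.7%), with Thrsp at -0.85 and Pklr at -0.62. Array medians of the list ran from -0.95 to 0.14 with rosiglitazone, against -0.30 to 0.45 in vehicle livers. Doubted rat 1376 was among the rosiglitazone livers for this and the following gene lists, and the counts were not made without it. Retinoic acid gave 2 higher and 5 lower (29.2%), with Lpin1, a phosphatidate phosphatase, at -0.79.

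Among the other desaturases, elongases and their partners, 17 were tested in liver. Fenofibrate raised 8 and lowered 2, and Wy-14643 raised 7 and lowered 2. Bezafibrate raised 2 and lowered 1, rosiglitazone raised 2 and lowered 4, and retinoic acid lowered 6. In this order of compounds, 37.0, 40.2, 21.3, 22.7 and 29.2% of all features were called. Fads2, the desaturase that opens the synthesis of polyunsaturated fatty acids, rose by 1.05 with fenofibrate and 1.03 with Wy-14643 and fell by 1.29 with retinoic acid. Elovl2, an elongase of polyunsaturated chains, fell by 0.62 with fenofibrate, 0.42 with Wy-14643 and 0.87 with retinoic acid. The list medians lay between -0.07 and 0.06 in all 5 comparisons. Of 15 genes of cholesterol synthesis, which SREBP-2 controls, fenofibrate raised 2 and Wy-14643 lowered 6, in shares below and near those of all features called (37.0 and 40.2%).

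Classic PPARA targets rose in the same livers. Of 9, 8 were higher with fenofibrate, bezafibrate and Wy-14643, with medians of 2.01, 1.53 and 2.25, while rosiglitazone gave 2 higher and 1 lower and retinoic acid 5 lower. Ehhadh, an enzyme of peroxisomal beta-oxidation, rose by 3.01 with fenofibrate, 1.94 with bezafibrate and 2.90 with Wy-14643. Cell markers moved as well. Of 8 macrophage markers, 7 were lower with fenofibrate and 7 with Wy-14643, with array medians from -0.72 to 0.03 and from -0.80 to -0.09, against -0.43 to 0.41 in vehicle livers. Of 8 hepatocyte markers tested, 3 were lower with each of fenofibrate, bezafibrate and Wy-14643, 2 with rosiglitazone and 4 with retinoic acid, and none was higher, where 37.0, 21.3, 40.2, 22.7 and 29.2% of all features were called. Their array medians ran from -0.70 to -0.05 with fenofibrate, from -4.07 to 0.17 with rosiglitazone and from -0.73 to -0.07 with retinoic acid, against -0.35 to 0.26 in vehicle livers. The value of -4.07 was that of doubted rat 1376, without which the lowest rosiglitazone liver had -0.24. Ratios to a pool give no absolute levels, so whether a marker was near 0 could not be read, and the markers' part in the members' rises was not tested.

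Over the 5 days in soleus and quad, no probe was called with fenofibrate, bezafibrate, Wy-14643 or retinoic acid, and rosiglitazone raised Scd and Elovl6. In soleus, Scd probe 2 differed by -0.39 ± 0.349 with fenofibrate, 0.06 with bezafibrate, -0.25 with Wy-14643 and -0.30 with retinoic acid. In quad the same probe differed by 0.05 ± 0.395, -0.14, -0.10 and -0.18. The 95% interval for fenofibrate ran from -1.08 to 0.30 in soleus and from -0.73 to 0.83 in quad, so that smaller differences could not be seen. Without the doubted arrays, Scd2 was called lower with retinoic acid in soleus (-0.42) and quad (-0.32) and with bezafibrate in soleus (-0.34), where all arrays together gave -0.31, -0.30 and -0.22 with no call. Called shares of all probes were 3.32% with fenofibrate, 0.777% with bezafibrate, 0.219% with Wy-14643 and 2.36% with retinoic acid in soleus, and 5.95, 1.42, 0.0428 and 2.27% in quad. Of 10 classic PPARA targets, fenofibrate raised 5 in soleus and 2 in quad, bezafibrate 3 and 3, Wy-14643 3 and 2, and retinoic acid 0 and 1. Acot1, an acyl-CoA thioesterase, rose by 2.14 with fenofibrate in soleus and by 1.20 in quad.

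Rosiglitazone raised Scd and Elovl6 in soleus. Scd probe 2 ranged from -2.26 to 4.26 (median 2.61) in 20 rosiglitazone rats, against -3.63 to 3.30 (median -0.47) in 35 vehicle rats. 18 of 20 lay above the vehicle mean of their day and 7 above the highest vehicle rat. The difference was 2.44 ± 0.342, 5.43-fold (limma adjusted p = 6.96e-08), and ranked 2 of 23304 probes. Elovl6 probe 4 ranged from 0.20 to 2.08 (median 1.06), against -1.21 to 2.21 (median -0.03), with all 20 rats above the vehicle mean of their day and none above the highest vehicle rat. Its difference was 1.03 ± 0.136, 2.04-fold (limma adjusted p = 1.31e-08). Scd probe 1 (0.41 ± 0.0767), Elovl6 probe 1 (0.84 ± 0.147) and Elovl6 probe 2 (0.54 ± 0.078) were also called, 5 of 7 probes in all where 2.34% of all probes were called, 1.51% as higher. Scd2 (-0.05) and Elovl6 probe 3 (-0.07) were not.

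Quad gave the same pattern with less certainty. Scd probe 2 ranged from -2.11 to 3.08 (median 0.42) in 16 rosiglitazone rats, against -3.36 to 2.74 (median -1.23) in 63 vehicle rats, and 13 of 16 lay above the vehicle mean of their day. The difference was 1.56 ± 0.429, 2.94-fold (limma adjusted p = 0.0129). Leaving out day 4 or day 5 ended that call (1.43 and 1.31). Elovl6 probe 4 ranged from -0.64 to 2.12 (median 0.79), against -1.68 to 2.77 (median -0.49), and differed by 1.04 ± 0.242, 2.05-fold (limma adjusted p = 0.00217, 15 of 16 rats above the vehicle mean). Elovl6 probes 1 (0.87 ± 0.205) and 2 (0.49 ± 0.14) were called too, which made 4 of 7 probes, with 6.42% of all probes called, 3.80% as higher. Leaving out day 3 ended the calls of all 3 Elovl6 probes (0.78, 0.36 and 0.94 on probes 1, 2 and 4), and that of probe 2 also ended without day 2 or day 4. The 4 rosiglitazone rats of day 3 in quad are numbered 1 to 4 in the labels and match no rat of another tissue. Set against the pool in place of the single vehicle rats, Scd probe 2 was 0.50 and not called, and the vehicle rats themselves averaged -1.05 on this probe.

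The 5 soleus calls of means over days stood in all 15 alternatives run for them, leaving out each day included. Vehicle arrays of soleus numbered 6, 11, 10, 4 and 4 on days 2 to 6. Doubted rats 1022, 1034 and 1061 were among those of days 3, 4 and 5. Scd probe 2 differed by 1.24, 1.51, 2.86, 3.80 and 2.79 on days 2 to 6, and days 4 and 5 were called, with 0.176 and 0.708% of all probes called. Elovl6 probe 4 differed by 0.93, 1.18, 1.01, 0.98 and 1.03, and day 3 was called (0.0944% of all probes). Unlike the means over days, these single days rested on few rats. Only treated rats were left out singly on single days. The day 4 call of Scd probe 2 and the day 3 call of Elovl6 probe 4 ended when any of the 4 rats of the day was left out (2.60 to 3.04 and 1.06 to 1.27), and the day 5 call of Scd probe 2 ended without rat 1379 (3.59). In quad the differences of Scd probe 2 were 2.04, 0.82, 2.08, 2.53 and 0.32 and those of Elovl6 probe 4 were 1.66, 1.45, 1.04, 0.89 and 0.16, none of them called. Quad called Elovl6 probes 2 (1.00) and 3 (0.35) with rosiglitazone on day 3, when 4.94% of all probes were called, and each of these calls ended when either of a pair of rats was left out (rats 3 and 4 for probe 2, rats 2 and 3 for probe 3). Quad also called Scd probe 1 (0.45) and Elovl6 probe 3 (0.38) with fenofibrate on day 6, when 42.0% of all probes were called. Day 6 with fenofibrate held the doubted array of rat 1157, without which the differences were 0.26 and 0.07 and not called.

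Some adipocyte markers and some lipogenic genes were higher in the same rosiglitazone muscles. Of 8 adipocyte markers, 2 were called in each muscle, where 2.63% (soleus) and 6.86% (quad) of all features were called. Fabp4, which encodes a fatty acid carrier of fat cells and capillaries, rose by 1.36 in soleus and 1.36 in quad. Lipe, hormone-sensitive lipase, rose by 0.40 and 0.44. The list median was 0.24 and 0.32, against 0.00 and -0.01 over all features. The lipid droplet protein gene Plin1 differed by 0.25 and 0.27 and was not called, and the adipokine genes Lep and Retn and the complement factor gene Cfd differed by -0.04 to 0.05. Array medians of the list ran from -0.08 to 0.86 in rosiglitazone soleus, against -0.23 to 0.73 in vehicle soleus, and from -0.28 to 1.41, against -0.59 to 0.82, in quad. The part of fat cells in the Scd and Elovl6 rises was not tested. Of 22 genes of lipogenesis and its control, soleus had 4 higher (2.63% of all features called): Thrsp at 0.85, Insig1, a brake on SREBP processing, at 0.49, Nr1h3, which encodes LXR alpha, at 0.34, and Slc25a1, the mitochondrial citrate carrier, at 0.14. Quad had 3 higher and 1 lower (6.86%): Insig1 at 0.47, Nr1h3 at 0.34, Srebf1 at 0.24 and Mid1ip1, which promotes polymerisation of acetyl-CoA carboxylase, at -0.41. Among 18 other desaturases, elongases and their partners, soleus had 1 higher and quad 1 higher and 2 lower. Fads3, a desaturase of the same family as Fads2, rose by 0.21 and 0.22, while in quad Tecr and Hacd1, enzymes of the elongation cycle, fell by 0.16 and 0.26.

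**Figure D3:**
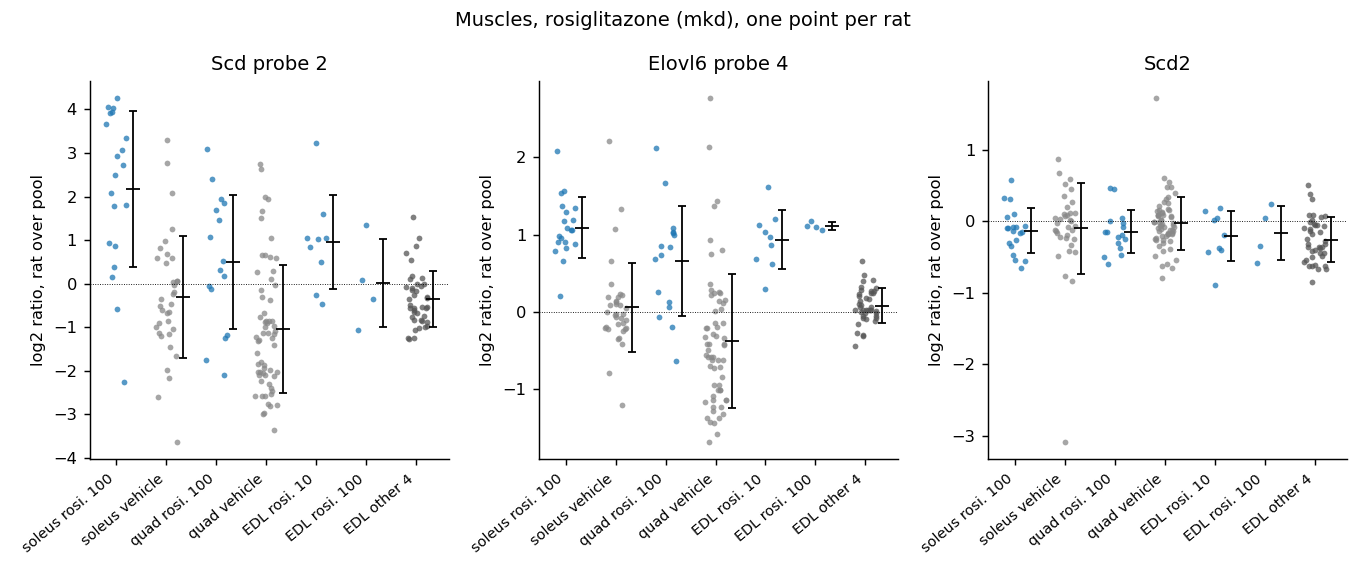
Log2 ratio of rat over pool in muscle for Scd probe 2, Elovl6 probe 4 and Scd2, 1 point per rat, with the mean and SD beside each group; "rosi." is rosiglitazone with its dose in mkd, and "EDL other 4" pools the 4 other compounds given in EDL. Rosiglitazone points on Elovl6 probe 4 run from 0.20 to 2.08 in soleus and from 0.30 to 1.62 in EDL at 10 mkd, and on Scd2 the rosiglitazone and vehicle points of soleus and quad overlap, with mean differences of -0.05 and -0.13.

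Wy-14643 and rosiglitazone were the 1 pair of compounds given at the same dose, 100 mkd, and their difference in Scd and in Elovl6 probes 1, 2 and 4 was above 0 in liver and below 0 in soleus and quad. It was tested for 7 probes in 3 tissues. In liver all 7 probes were higher with Wy-14643, where 29.7% of all probes were called. Scd probe 2 averaged 3.64 with Wy-14643 and -0.90 with rosiglitazone, a difference of 4.54 ± 0.409 (limma adjusted p = 1.34e-17). Elovl6 probe 4 differed by 1.94 ± 0.293 (limma adjusted p = 3.94e-08) and Scd2 by 0.71 ± 0.143 (limma adjusted p = 3.31e-05). The Scd2 call rested on day 6, without which the difference was 0.28 (limma adjusted p = 0.19). In soleus Scd probe 2 averaged -0.51 with Wy-14643 and 2.18 with rosiglitazone, a difference of -2.69 ± 0.385 (limma adjusted p = 1.77e-07), and Elovl6 probe 4 differed by -1.24 ± 0.153 (limma adjusted p = 1.1e-09). There 5 of 7 probes were called, against 1.37% of all probes. In quad 3 of 7 were called, against 3.82%: Elovl6 probes 1 (-0.83), 2 (-0.58) and 4 (-1.02 ± 0.303, limma adjusted p = 0.0326). Scd probe 2 in quad differed by -1.66 ± 0.538 and was not called (limma adjusted p = 0.061). The 3 quad calls each ended when any of days 2 to 5 was left out. Scd2 differed by 0.15 in soleus, with a 95% interval from -0.12 to 0.42, and by 0.13 in quad, without a call. Without day 5 the soleus difference of Scd probe 1 was -0.27 and not called.

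The differences between liver and muscle were tested in 1 fit over the 3 tissues. For the effect in liver minus that in soleus, all 7 probes were called with fenofibrate and with Wy-14643, and 4, all of Elovl6, with bezafibrate, where 18.6, 21.4 and 7.30% of all probes were called. With fenofibrate the difference was 4.83 ± 0.534 for Scd probe 2 (limma adjusted p = 2.2e-15), 2.79 for Elovl6 probe 4 and 1.25 for Scd2. Liver minus quad gave the same counts of 7, 7 and 4 (18.8, 19.9 and 7.89% of all probes), with 4.39 ± 0.512 for Scd probe 2 with fenofibrate (limma adjusted p = 4.32e-14). With rosiglitazone the sign turned. Scd probe 2 differed by -2.73 ± 0.518 between liver and soleus (limma adjusted p = 4.67e-05) and by -1.85 ± 0.522 between liver and quad (limma adjusted p = 0.00996). Both Scd probes and Elovl6 probes 1 and 4 were called in both comparisons, with 7.16 and 10.1% of all probes called. Both Scd calls of liver minus soleus were kept in all 10 alternatives, while those of liver minus quad ended in 2 (probe 1) and 3 (probe 2) of 10, among them leaving out day 4 or day 5. The Elovl6 calls ended in 5 or 6 of 10, among them leaving out day 2, 4 or 5. With retinoic acid, liver minus soleus called both Scd probes (0.42 and 1.48, with 13.7% of all probes) and liver minus quad Scd probe 1 (0.30, with 12.9%), calls that ended in 2, 5 and 4 of 10 alternatives, each of them without day 2. The Scd2 call with Wy-14643 for liver minus soleus ended without day 6 (0.38). No member's effect differed between soleus and quad for any compound, where 14.4, 0.0735, 0, 0.130 and 0.117% of all probes were called in the order fenofibrate, bezafibrate, Wy-14643, rosiglitazone and retinoic acid. The 95% interval for Scd probe 2 with rosiglitazone, soleus minus quad, ran from -0.15 to 1.92 around 0.88.

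**Figure D4:**
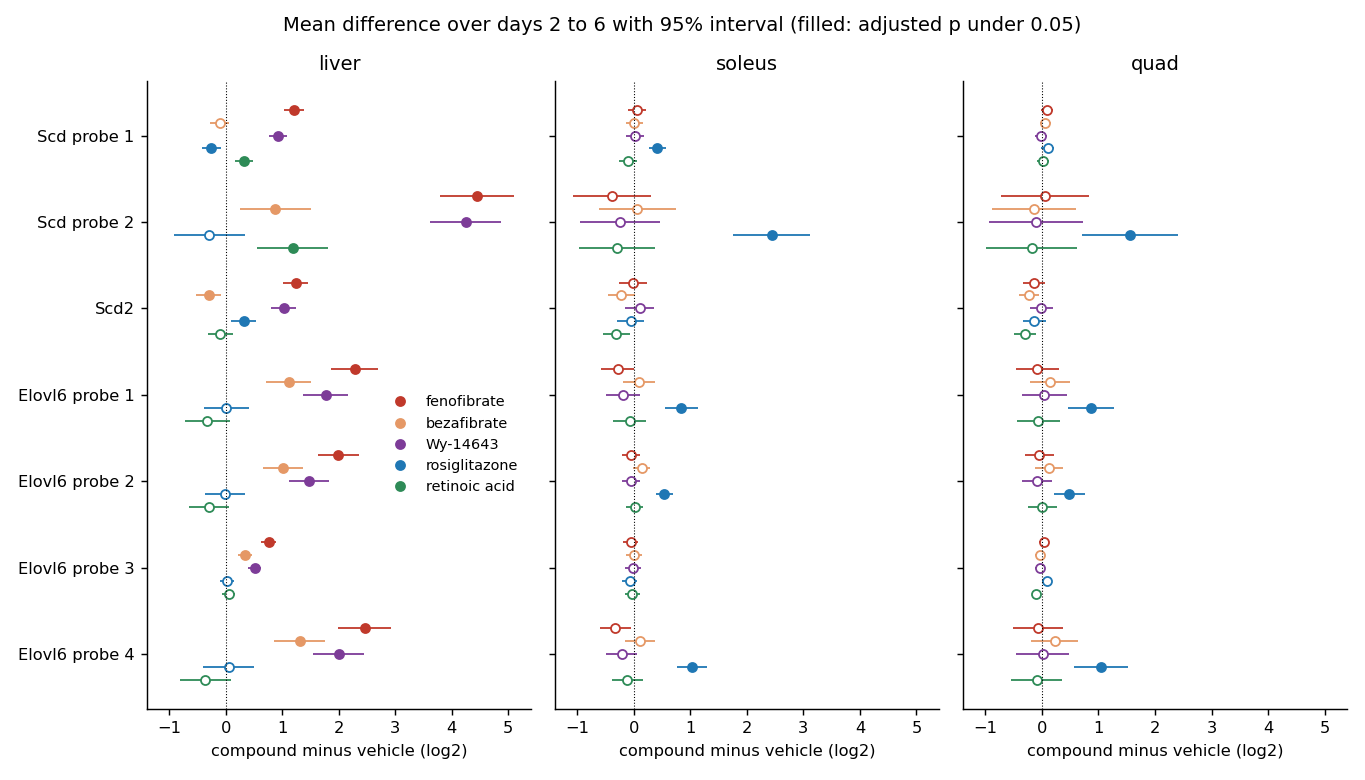
Mean log2 difference of compound minus vehicle over days 2 to 6 for the 7 probes (rows) in liver, soleus and quad, by compound (colours), with 95% intervals; filled points have an adjusted p under 0.05. In liver the filled points of fenofibrate and Wy-14643 reach 4.44 and 4.24 on Scd probe 2, and in the muscles only rosiglitazone points are filled.

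EDL was the muscle given low doses, and its ratios were tested against 0, the pool. Many features lay off the pool: 35.7% of all probes were called with fenofibrate, 34.5% with bezafibrate, 47.7% with Wy-14643, 41.4% with retinoic acid, and 38.1 and 33.3% with rosiglitazone at 10 and 100 mkd. A call there thus carries little weight, and 13 of 42 tests of the members were called. Rosiglitazone at 10 mkd gave the clearest values: Elovl6 probe 4 ranged from 0.30 to 1.62 (median 0.97) in 9 rats, with a mean of 0.94 ± 0.0898 (SE, limma adjusted p = 1.52e-10), so that every rat lay above the pool. Elovl6 probes 1 and 2 averaged 0.54 and 0.42. Scd probe 2 averaged 0.95 ± 0.242 (limma adjusted p = 0.00185), with rats from -0.48 to 3.23 (median 1.03), and Scd probe 1 averaged 0.11 (limma adjusted p = 0.046). At 100 mkd on day 4, Elovl6 probe 4 ranged from 1.06 to 1.17 in 4 rats with a mean of 1.11 ± 0.135 (limma adjusted p = 4.22e-08), while Scd probe 2 ranged from -1.06 to 1.36 with a mean of 0.01. On day 4 the higher and the lower dose differed by 0.08 ± 0.206 on Elovl6 probe 4 (95% interval -0.34 to 0.49) and by -0.71 ± 0.554 on Scd probe 2 (-1.83 to 0.41). No member was called in that comparison, and 0.00423% of all probes were.

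The other EDL groups had calls on single probes. Wy-14643 at 10 mkd gave -0.69 ± 0.209 on Scd probe 2 (limma adjusted p = 0.00601) and -0.23 ± 0.0866 on Scd2 (limma adjusted p = 0.0299). Bezafibrate at 25 mkd gave -0.36 ± 0.1 on Scd2 (limma adjusted p = 0.00429). Retinoic acid at 2.5 mkd gave -0.28 ± 0.0919 on Scd2 (limma adjusted p = 0.0122) and 0.22 ± 0.0636 on Elovl6 probe 1 (limma adjusted p = 0.00511). Fenofibrate at 50 mkd gave no call. Scd2 was below the pool in all 6 groups, from -0.36 with bezafibrate to -0.15 with fenofibrate, and at -0.21 with rosiglitazone at 10 mkd. On Scd probe 2 the single vehicle rats of the other tissues lay below their own pools, by a mean of -0.61 in liver, -0.26 in soleus and -1.05 in quad. Set against the other low-dose compounds of the same days in place of the pool, 4 of 35 tests were called, none of them for Scd2. Leaving out a day also ended the Scd2 calls of bezafibrate, Wy-14643 and retinoic acid. With rosiglitazone at 10 mkd it ended the calls of Scd probe 1 (without day 3, 5 or 6) and Scd probe 2 (0.57 without day 6). That group had no arrays of day 3, so leaving out day 3 changed only the shared estimate of spread and the adjustment.

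Vehicle rats differed widely from each other on some probes of these genes. The SD of Scd probe 2 within a day was 1.31 in liver, 1.22 in soleus and 1.46 in quad, larger than that of 99.9, 99.0 and 99.9% of all probes, where the median probe had 0.162, 0.369 and 0.195. Elovl6 probe 4 had 0.819, 0.610 and 0.869, Scd2 0.343, 0.644 and 0.372, and Scd probe 1 0.213, 0.227 and 0.179. Without the 3 doubted vehicle arrays of soleus, the SD there was 0.329 for Scd2, 0.147 for Scd probe 1, 1.28 for Scd probe 2 and 0.205 for the median probe. Elovl6 probe 3 had 0.189, 0.269 and 0.137, the lowest of the Elovl6 probes in each tissue. With all arrays, Scd probe 1 and Elovl6 probe 3 varied less than the median probe in soleus and quad. Without the doubted arrays of soleus, Elovl6 probe 3 had 0.250 there, above the median probe.

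Scd and Elovl6 varied together among vehicle rats of liver and quad. With the probes of a gene averaged and each day's mean subtracted, Pearson's r was 0.877 and Spearman's rho 0.775 over 63 vehicle rats in quad, and 0.678 and 0.607 over 73 in liver. Each permutation p was 1e-05, the smallest that 100000 permutations can give, or 4e-05 adjusted over the 9 correlations tested (3 pairs of genes in 3 tissues). Within single days r ran from 0.795 to 0.945 in quad and from 0.349 to 0.833 in liver. Without the 2 rats farthest from the median of Scd, r was 0.845 in quad and 0.619 in liver. In soleus the same pair gave r = 0.268 and rho = 0.296 over 35 rats (adjusted permutation p = 0.092 and 0.11). Without the 3 doubted arrays this was r = 0.332 and rho = 0.393 over 32 rats (adjusted permutation p = 0.028 and 0.042), and the other pairs in soleus, at r = 0.192 (Scd and Scd2) and 0.268 (Scd2 and Elovl6) with all arrays, had r = 0.475 and 0.645 (adjusted permutation p = 0.0093 and 0.028). In liver Scd and Scd2 gave r = 0.552 and rho = 0.291 (adjusted permutation p = 0.00069 and 0.05), and r = 0.312 without the 2 farthest rats. Scd2 and Elovl6 gave r = 0.426 and rho = 0.216 in liver (adjusted permutation p = 0.003 and 0.093). Without 2 rats this r fell to 0.255 (adjusted permutation p = 0.081) and so rested on them. Both Scd2 correlations in liver changed sign between days. Within single days r ran from -0.249 to 0.796 with Scd and from -0.59 to 0.808 with Elovl6. The 2 genes of a pair were read on the same array of the same rat, so that array effects are shared.

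**Figure D5:**
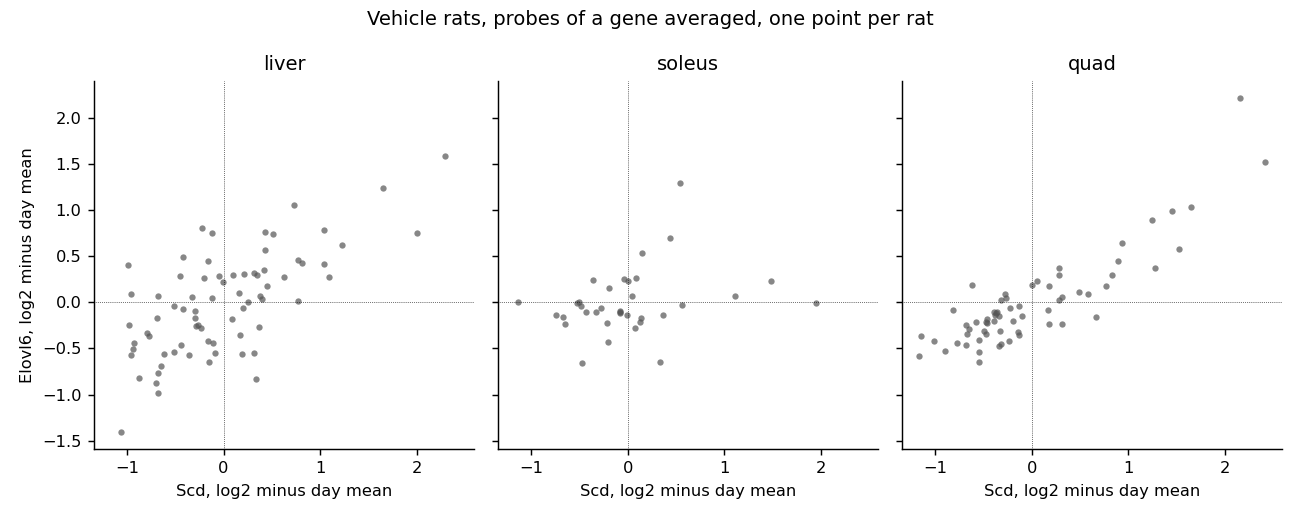
Elovl6 (vertical) against Scd (horizontal) in vehicle rats of liver, soleus and quad, as log2 ratio minus the mean of the day with the probes of a gene averaged, 1 point per rat. The quad points follow a line (r = 0.877, 63 rats), the liver points scatter around one (r = 0.678, 73 rats), and the 35 soleus points, 3 doubted arrays included, have r = 0.268.

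Probes of a gene did not always read alike outside liver. Elovl6 probes 1 and 4 correlated at r = 0.894 over the 132 soleus arrays and 0.975 over the 151 quad arrays, while probes 1 and 3 had r = -0.111 and 0.115. Both Scd probes correlated at r = 0.572 in soleus and 0.632 in quad. The tests of the members are given per probe for that reason, while the correlations among vehicle rats and the genes of like pattern use the probes of a gene averaged.

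The genes most like each member over all arrays of a tissue differed between liver and muscle. These are correlations over treated and vehicle arrays alike, given as a description with no test. Over 147 liver arrays and 10066 named genes, Scd was closest to Acot8, a peroxisomal acyl-CoA thioesterase (r = 0.798), Acsl3, an acyl-CoA synthetase (0.794), Hhatl, Lpcat3, a phospholipid-remodelling acyltransferase, and Arhgef11. Elovl6 was closest to Acsl3 (0.831), Ehhadh (0.813), Pdk4, a kinase that restrains pyruvate dehydrogenase (0.805), Pex11a and Acsl1. In quad, Scd was closest to Thrsp (0.899) and Fasn, the fatty acid synthase (0.864), followed by Pygl, Tkt and Prkar2b, and Elovl6 to Fasn (0.820), Tkt, Prkar2b, Thrsp and Pygl. In soleus, Scd was closest to Thrsp (0.896), followed by Tdrp, Prkar2b, Resp18 and Psat1, and Elovl6 to Fabp5 (0.739), Mgll, Tkt, Rbp7 and Phgdh. In EDL, Thrsp led for Scd (0.805), and Fabp4 led for Elovl6 (0.855), followed by Rbp7, Gpihbp1, Mgll and Slc52a2.

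For Scd2 the closest genes in liver were C9h2orf88 (0.694), Hhatl, which also stood among the 5 closest to Scd, Apip, Aldh5a1 and Acacb, and its r to Scd was 0.546 and to Elovl6 0.435. In quad they were Mal (0.627), Pmp22 (0.617), Tbcb, Ugt8 and Copz2, of which Mal, Pmp22 and Ugt8 are known from myelin and Schwann cells. In EDL Cmtm3 (0.737) and Pmp22 (0.726) led, and in soleus Sh2b3 (0.728). Of 8 Schwann cell and myelin markers, none was called with rosiglitazone in soleus or quad, where Scd2 was not called either.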

How the data were processed

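Each 2-colour array held RNA of 1 rat and a pool of 10 to 16 vehicle rats. The authors' deposited table holds values for 23653 probes that were taken as log10 ratios, since the labels used here state neither scale, normalisation nor direction. Array medians already lay between -0.34 and 0.17 after conversion to log2 (multiplied by 3.32), so no further normalisation was applied, and intensities were not used here. Per the labels of 405 samples, cRNA was coupled to dye after in vitro transcription. Of all values, 0.907% had no entry and 0.0061% stood at the 100-fold cap; the number of arrays limits the precision, and the labels do not give the spread between litters or cages. Probes were named through the platform's annotation and the rat gene table.

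Probes with a value on at least 80% of a tissue's arrays entered limma 3.58.1 (R 4.3.3, statmod 1.5.0), with 1 mean per compound and day. Days were averaged with equal weight, single vehicle rats were subtracted, and p-values were adjusted by Benjamini-Hochberg over all probes at 5%. Tissues were compared in a joint fit, and EDL ratios were tested against 0. Gene lists were tested with the probes of a gene averaged and are described by counts. Up to 4 called genes of a list with the smallest adjusted p were named, besides the markers, which were chosen after their values were seen. Correlations, motif searches and plots used Python 3.11.15, numpy 2.4.6, pandas 2.3.3, scipy 1.17.1 and matplotlib 3.10.9.

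The members and lists were chosen with earlier results of these data known. Rat numbers in the labels were taken to mark the same animal across tissues, except for the quad rosiglitazone rats of day 3, numbered 1 to 4, which match no other tissue: the residuals of arrays of 1 rat correlated at a median of 0.129 (liver and soleus), 0.135 (liver and quad) and 0.238 (soleus and quad), against -0.017, -0.012 and -0.045 for other rats. In each simulated data set, 50 probes each were changed by 0.3, 0.6, 1 and 2 log2 units. Of those changed by 0.3, the rosiglitazone comparisons recovered 88% in liver, 84% in soleus and 92% in quad. Among all probes left unchanged, 11, 13 and 20 were called. The simulated noise was normal with each probe's robust spread, so the wide values of doubted arrays were not simulated. Recovery for probes as variable as Scd probe 2 was not tested.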

Additional observations from a re-analysis of the deposited data

Results flagged for a closer look

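The effect of a compound differed between liver and muscle in a direct test for 7 of 7 probes with fenofibrate and 7 with Wy-14643, in liver minus soleus and in liver minus quad alike. With bezafibrate 4 differed in each comparison, and with rosiglitazone 4 in each. With retinoic acid 2 differed for liver minus soleus and 1 for liver minus quad. In the order fenofibrate, bezafibrate, Wy-14643, rosiglitazone and retinoic acid, liver minus soleus called 18.6, 7.30, 21.4, 7.16 and 13.7% of all probes. Liver minus quad called 18.8, 7.89, 19.9, 10.1 and 12.9%, so the retinoic acid count there was near the share of all probes. The values of Scd, Elovl6 and Scd2 behind the members' counts stand with the comparison of the tissues.

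Scd2 in liver differed between days: its difference from vehicle grew by 0.88 log2 units per day with fenofibrate and by 0.72 with Wy-14643.

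In EDL, 1 bezafibrate rat at 25 mkd stood apart on Elovl6 probe 3, at 0.632 among 9 rats with a median of 0.16. It was the 1 such case in 28 groups tested, where chance gives about 1 in 20.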

How the results depend on the processing

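Of 910 tests of a single probe, 682 were called under no setting. The calls of the main comparisons were kept under every alternative run for them in 27 of 33 cases in liver, 9 of 10 in soleus, 0 of 7 in quad, 6 of 13 in EDL, 45 of 83 on single days and 37 of 47 between tissues. Alternatives for single days, and leaving out single rats there, were chosen after seeing the data. Fenofibrate and Wy-14643 in liver kept all 14 means over days. Scd probe 2 ran from 2.82 to 4.62 with fenofibrate and from 2.58 to 4.38 with Wy-14643, the low end with both Scd probes averaged, and Scd2 from 0.65 to 1.57 and from 0.57 to 1.34.

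Counts of calls that moved by over 1.5 times: in quad, compound minus vehicle called 4 of 35, but 10 against the pool, 1 without day 3 and 2 without day 4. Wy-14643 minus rosiglitazone in quad called 3 of 7, but 0 without day 2, 3, 4 or 5 and 5 without day 6. Slopes called 1 of 35 in soleus with array quality weights and 1 in quad without day 2, against 0 in the main fits. Soleus minus quad called 1 of 35 with array quality weights, against 0. EDL called 4 of 35 when set against the other low-dose compounds, against 13 of 42. The spread among vehicle rats without the doubted arrays was also chosen after seeing the data. Among vehicle rats, leaving out the doubted arrays gave called correlations in soleus of 0.475 (Scd and Scd2), 0.332 (Scd and Elovl6) and 0.645 (Scd2 and Elovl6). Without the 2 farthest rats, Scd2 and Elovl6 gave 0.255 in liver, 0.644 in soleus and 0.422 in quad.

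With the rat as a replicate block, 24 of 35 differences were called for liver minus soleus (main 24), 25 for liver minus quad (main 23) and 0 for soleus minus quad (main 0). The block added rosiglitazone on Scd2 (0.45, adjusted p = 0.0422) and retinoic acid on Scd probe 2 (1.35, adjusted p = 0.0498), both liver minus quad. Block and left-out doubted arrays together gave 24, 25 and 0. That added rosiglitazone on Scd2 for liver minus soleus (0.42) and lost Elovl6 probe 1 (-0.66, adjusted p = 0.0786).

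Some values changed sign, none of those given here called under the main setting except Scd2 with Wy-14643 in EDL. Of the 682 tests called under no setting, 215 changed sign under some alternative, so the values here are not a full list. Elovl6 probe 4 in liver with retinoic acid was 0.04 without day 3. Elovl6 probe 3 in soleus with rosiglitazone was 0.58 with the probes averaged and 0.0048 against the pool. Values with the probes averaged stand for all 4 Elovl6 probes and not for probe 3 alone. Elovl6 probe 3 in quad with fenofibrate was -0.012 with arrays scaled, -0.042 with probes averaged, -0.053 without day 6 and -0.025 without the doubted arrays, and leaving out single rats moved it between -0.028 and 0.039. Scd probe 2 in quad with fenofibrate was -0.999 against the pool, -0.18 without day 2 and -0.072 without day 4, and with bezafibrate 0.051 without day 3 and 0.19 without day 5. Scd2 in EDL against the other compounds was 0.014 with Wy-14643 and 0.054 with rosiglitazone at 10 mkd. On day 6 of fenofibrate in quad, Scd2 was 0.11 and Elovl6 probe 1 was 0.39 without the doubted arrays, and leaving out single rats moved them between -0.93 and 0.19 and between -1.28 and 0.53. The cause of these changes was not tested. Reading the scale as natural log or log2 was not run, since all values would scale together.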
